A study of Oreochromis niloticus with 24 samples.

Results

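The 59 genes described here had more reads in LH cells than in FSH cells of the Nile tilapia pituitary in both sexes, and were not strongly depleted from FSH cells, relative to the rest of the gland, in both sexes at once. They were chosen from the measured values. Levels are given in normalized reads (NR), which are read counts scaled by a library size factor, and differences between fractions are differences of the mean log2(NR + 1) over 4 libraries. A member had an LH minus FSH difference above 1 in males and in females, and an FSH minus Negative difference at or above -1 in at least 1 sex. Of the 1309 genes listed for both sexes, 151 passed the first condition, 87 of these lay under -1 in FSH minus Negative in both sexes and were therefore not members, and 5 of the 10 genes that the rule sets aside by name would otherwise have passed. In 34 of the 59 members the FSH minus Negative difference was at or above -1 in both sexes, whereas in 25 it lay under -1 in 1 sex. The limit of -1 is a cut of the rule and not the absence of a difference, since among the 34 all FSH libraries lay below all Negative libraries for itsn2, npas4 and ajap1 in females and for LOC100692491 in males.

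The libraries came from sexually mature male and female Nile tilapia (Oreochromis niloticus, Lake Manzala strain), a teleost fish, all of them transgenic for red fluorescent protein (RFP) driven by an LH promoter and green fluorescent protein (GFP) driven by an FSH promoter. Pools of pituitaries of the same sex, nominally 20 in each by the series' description, were digested with trypsin and sorted by fluorescence into LH cells (RFP positive), FSH cells (GFP positive) and a Negative fraction without fluorescence. The study's methods also give 20, whereas its results and a figure legend give ranges of pool sizes. The sort was made 4 times in each sex, which gave 24 libraries in 6 groups of 4. Libraries with the same replicate number and sex were taken to come from the same pool, which their titles do not state. The Negative fraction is a mixture of all other pituitary cells rather than a defined cell type.

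Luteinizing hormone and follicle-stimulating hormone are glycoproteins that share an alpha subunit and differ in their beta subunit. In teleosts they are made by separate cells of the proximal pars distalis, whereas mammalian gonadotrophs can make both in the same cell. In fish, FSH is associated mainly with growth of the gametes, and LH with final maturation and ovulation or sperm release.

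Libraries held 69091 (female Negative) to 2004647 (male FSH) reads on genes of the tables, and members took 1.76 to 2.97% of them in male LH and 3.33 to 5.22% in female LH libraries. A count of 3 reads was taken as the detection floor, which covers counting error only. The LH beta subunit gene lhb was at 3970 to 10131 NR in male LH, 9.36 to 30.6 NR in male FSH and 2.64 to 34.3 NR in male Negative libraries, and at 1035 to 1678, 11.8 to 13.9 and 2.74 to 12.3 NR in those of females. The FSH beta subunit gene fshb was at 30489 to 66628 NR in male FSH, 85.2 to 341 NR in male LH and 30.2 to 184 NR in male Negative libraries, and at 24856 to 45449, 23.6 to 47.9 and 15.8 to 69.4 NR in those of females. Each subunit gene was thus high only in the fraction labelled for it, and both were low in the Negative fraction. Male LH replicate 1, at 10131 NR, stood apart from the other male LH libraries, which were at 3970 to 4353 NR. Among females, 7 macrophage markers (cd74, cd74b, spi1a, marco, c1qb, apoeb and csf1r) summed to 6003 to 14569 NR in LH, 670.0 to 1321 NR in FSH and 2969 to 4494 NR in Negative libraries, all 7 had a higher mean in LH than in Negative cells, and csf1r was at 0 in FSH cells. The male table lists none of them, and none is a member. Only genes selected as enriched in LH or FSH over Negative cells were listed. All 7 had a lower mean in FSH than in Negative cells, so their listing required a higher level in LH cells. That order is therefore no separate result. Absence from the male table means that a marker did not pass this selection, not that its transcript was missing. Single markers of vessel endothelium and glia were also highest in LH and lowest in FSH cells by mean, with cdh5 at 25.7 to 43.7 NR in male LH, 8.97 to 26.8 NR in male Negative and 6.14 to 14.0 NR in male FSH cells, and means in the same order in females of 78.9, 29.4 and 4.43 NR for kdrl and 24.2, 10.3 and 3.36 NR for fabp7a. These 3 genes were also lower in FSH than in Negative cells, so the same limit of selection holds for them. The mural cell marker dcn had another order. Its means in LH, FSH and Negative cells were 42.8, 29.5 and 3.25 NR in males and 5.53, 15.4 and 0.96 NR in females. The part of all these cells in the members' levels was not tested.

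Members spanned a wide range of levels and of size. Their LH means ran from 13.1 NR (LOC100707031) to 1852 NR (creb3l1) in males and from 8.02 to 1067 NR for the same pair in females, and 24 members had an LH mean of at least 100 NR in both sexes. The LH minus FSH difference of members ran from 1.05 to 5.21 in males, with a median of 1.80, and from 1.07 to 4.07 in females, with a median of 2.24. Over all 1309 genes the corresponding medians were -0.79 and -1.12. These values chose the members and are given as a description.

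Since the rule used LH minus FSH, counts in that contrast only describe the members. All 4 LH libraries lay above all 4 FSH libraries for 51 members in males, where 14.7% of the genes of the table did so, and for 54 in females, where 24.1% did. A total of 49 members were separated in both sexes, for which the share of all genes was not computed. With sorts taken by replicate number, LH had the highest NR of the 3 fractions in 8 of 8 sorts for 51 members, against 10.8% of the 1309 genes. A higher value in a sorted fraction can come from more cells with the transcript or from more transcript per cell, and these cannot be told apart in pooled cells.

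LH minus Negative is the sum of the contrasts in the rule, and the deposited tables were themselves selected on enrichment over the Negative fraction. The members had a median LH minus Negative difference of 1.73 in males (range 1.02 to 4.34) and of 1.38 in females (range 0.97 to 3.48), beside 1.08 and 0.45 over all genes. All LH libraries exceeded all Negative libraries for 49 of 59 members in males, against 55% of the male table. In females all LH libraries did so for 44 of 59 members, against 28.2% of the female table. They did so in both sexes for 41 members, for which the share of all genes was not computed. Members with a difference above 2 numbered 16 in males and 7 in females, and the share of all genes above 2 was not computed. LH minus Negative was larger in males in 83.7% of all 1309 genes.

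FSH minus Negative differed among members in sign as well as in size. Its median was -0.14 in males, with a range from -2.75 to 1.44, and -0.71 in females, with a range from -2.24 to 1.02, beside 1.77 and 1.46 over all genes. The difference was within 1 of zero in both sexes for 31 members, under -1 in females only for 19, under -1 in males only for 6, and above 1 in a single sex for the remaining 3 (LOC102077685, zbtb16b and LOC100709854). Over all 1309 genes FSH minus Negative was larger in males in 71.4%, and the share under -1 in a single sex was not computed. The difference was negative in both sexes for 29 members and positive in both for 5. All Negative libraries lay above all FSH libraries for 4 of 59 members in males, against 6.81% of the male table. In females they did so for 16 of 59 members, against 17.6% of the female table. No member had all FSH libraries above all Negative libraries in either sex, which 72.1% and 65.9% of the genes did.

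**Figure D1:**
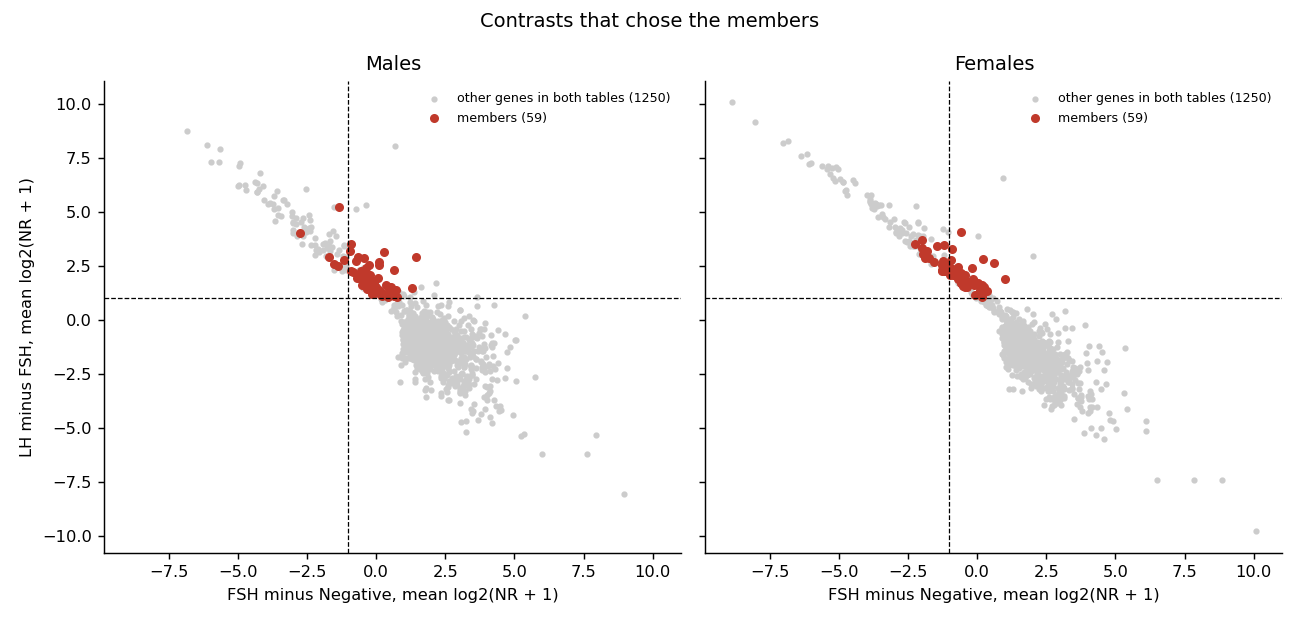
LH minus FSH against FSH minus Negative (differences of mean log2(NR + 1), n = 4 libraries a group) for the 1309 genes in both tables, males left and females right, with the 59 members in red and the rule's limits of 1 and -1 as dashed lines. Members fill the corner above the horizontal line, with male FSH minus Negative values from -2.75 to 1.44 and female values from -2.24 to 1.02, and most other genes lie below and to the right of them.

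Values of single libraries are given in the order of replicates 1 to 4. Among the 4 members grouped as secreted proteins, apart from the semaphorin gene sema3e, which is described with guidance molecules, gphb5 encodes the beta subunit of thyrostimulin, a glycoprotein hormone related to LH and FSH (linkage group 19, 5555297 to 5562573, assembly O_niloticus_UMD_NMBU). In males it was at 111, 67.4, 84.3 and 61.5 NR in LH, 8.42, 17.5, 6.14 and 9.59 NR in FSH, and 47.1, 13.6, 5.27 and 16.8 NR in Negative cells. In females it was at 50.2, 6.56, 27.3 and 54.6 NR in LH, 2.81, 4.64, 0 and 0.905 NR in FSH, and 1.83, 5.25, 10.6 and 4.39 NR in Negative cells. Every male LH library exceeded every other male library, and the LH to FSH ratio of means was 7.77 in males and 16.6 in females. Female LH replicate 2 was low, above all FSH libraries but below 1 Negative library.

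The gene pnhd (pinhead, a secreted factor known from frog and fish embryos; linkage group 18, 23292647 to 23296684) was at 20.9, 5.62, 9.37 and 20.1 NR in male LH, 1.87, 0.408, 1.23 and 1.2 NR in male FSH, and 0, 6.03, 0 and 1.12 NR in male Negative cells. In females it was at 9.46, 15.7, 7.29 and 34.5 NR in LH, 0, 0, 0 and 0.905 NR in FSH, and 11, 0, 11.8 and 2.2 NR in Negative cells. All FSH libraries of both sexes were at or below 3 reads, so that LH cells were at least 4.95-fold higher in males and at least 4.32-fold higher in females, against the mean NR that 3 reads represent in the FSH libraries. LH and Negative libraries overlapped in both sexes. The other secreted members were mst1, which encodes macrophage-stimulating protein, a ligand of the Ron receptor kinase, and sspo, which encodes SCO-spondin, the protein of the Reissner fibre. In mst1 the means were 98.1 ± 27.3, 23.1 ± 7.83 and 28.6 ± 6.25 NR (SD, n = 4) in male LH, FSH and Negative cells, and 56.5 ± 16.8, 14.5 ± 3.80 and 17.3 ± 7.79 NR in those of females. In sspo they were 124 ± 79.1, 29.1 ± 12.5 and 44.4 ± 11.5 NR in males and 53.7 ± 5.46, 11.2 ± 5.05 and 26.1 ± 7.28 NR in females. Both genes had LH libraries above all FSH and all Negative libraries in each sex.

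Receptors, channels and their partners made up 7 members. gria4a encodes a subunit of the AMPA-type glutamate receptor, a ligand-gated cation channel (LOC100706002, linkage group 14, 17842428 to 17951406). In males its values were 219, 487, 568 and 492 NR in LH, 82.4, 139, 138 and 127 NR in FSH, and 123, 164, 105 and 111 NR in Negative cells. In females its values were 315, 607, 377 and 624 NR in LH, 31.6, 63.9, 33.6 and 34.4 NR in FSH, and 165, 119, 276 and 235 NR in Negative cells. LH libraries were the highest in both sexes without overlap. FSH and Negative libraries overlapped in males, at a ratio of means of 0.964, whereas in females all FSH libraries lay below all Negative libraries, at 0.205.

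gfral encodes the receptor that in mammals binds the stress-related factor GDF15 (linkage group 13, 19785036 to 19789423). It was at 61.1, 82.9, 93.7 and 71.5 NR in male LH, 52.4, 40.4, 27.0 and 12 NR in male FSH, and 21.4, 12.1, 19.3 and 17.9 NR in male Negative cells. Female values were 67.7, 98.4, 34.6 and 76.5 NR in LH, 7.73, 10.4, 9.61 and 1.81 NR in FSH, and 33.8, 12.3, 30.6 and 30.8 NR in Negative cells. LH cells were again the highest in both sexes, and the FSH to Negative ratio of means was 1.86 in males, with overlap, and 0.276 in females, without overlap.

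The other receptors and partners had lower or more variable levels. LOC100534567, named in the study's receptor list as a muscarinic acetylcholine receptor of subtype 4 and the single G protein-coupled receptor among the members, was at 50.3 ± 11.2 NR in LH, 6.10 ± 1.90 NR in FSH and 8.50 ± 1.26 NR in Negative cells of males, and at 35.4 ± 7.43, 6.06 ± 2.2 and 12.4 ± 3.11 NR in those of females. neto1, whose product is an auxiliary subunit of ionotropic glutamate receptors in mammals, was at 63.0 ± 13.4, 12.7 ± 5.79 and 7.45 ± 2.09 NR in males and at 36.2 ± 8.80, 7.33 ± 1.95 and 11.9 ± 4.62 NR in females. In tmem266, which encodes a voltage-sensor domain protein, the means were 28.0 ± 1.76, 9.32 ± 5.87 and 10.9 ± 3.63 NR in males and 22.1 ± 9.74, 7.45 ± 0.872 and 7.29 ± 3.41 NR in females. In each of these genes the LH libraries were separated from both other fractions in both sexes. klb, the co-receptor of endocrine fibroblast growth factors, was at 126 ± 70.0, 26.8 ± 16.1 and 34.1 ± 9.61 NR in males and at 101 ± 41.6, 20.6 ± 12 and 49.3 ± 18.4 NR in females, where LH and Negative libraries overlapped. For the low density lipoprotein receptor gene ldlr, which takes up cholesterol-rich particles, the values were 110.1 ± 87.2, 24.3 ± 14.7 and 41.1 ± 29.1 NR in males, with overlap of LH with both other fractions, and 68.7 ± 12.8, 12.2 ± 5.53 and 26.2 ± 8.75 NR in females, without.

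Transcription regulators made up 5 members, and creb3l1 was the best covered of all 59. Its product is a membrane-bound transcription factor of the endoplasmic reticulum that is released by cleavage (linkage group 23, 12807328 to 12846833). In males creb3l1 was at 888, 1574, 2619.9 and 2325 NR in LH, 511, 802, 802 and 1264 NR in FSH, and 396, 611, 434 and 673 NR in Negative cells. In females it was at 820.5, 1793, 935 and 720.3 NR in LH, 312, 359.9, 269 and 466 NR in FSH, and 459, 355, 416 and 554 NR in Negative cells. Male LH replicate 1 fell within the range of male FSH libraries, while female LH libraries were above all others. FSH to Negative ratios of means were 1.60 in males and 0.788 in females, both with overlapping libraries.

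npas4, an activity-dependent transcription factor of neurons in mammals, varied widely between sorts. In males it was at 495, 1393, 1222 and 999 NR in LH, 592, 897, 335 and 109 NR in FSH, and 292, 452, 356 and 313 NR in Negative cells. Female libraries were at 491, 1022, 468 and 124 NR in LH, 82.9, 78.9, 135 and 104 NR in FSH, and 164, 268, 148 and 209.9 NR in Negative cells. LH and FSH libraries overlapped in both sexes, and female LH replicate 4 was below every female Negative library. The gene was a member nonetheless, because the rule uses means.

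foxo6b encodes a forkhead transcription factor (LOC100696396, linkage group 22, 38601274 to 38640681). Its male values were 86.9, 44.9, 41.7 and 59 NR in LH, 7.49, 9.39, 4.91 and 9.59 NR in FSH, and 15.0, 15.1, 17.6 and 7.85 NR in Negative cells. Its female values were 61.2, 49.8, 41.9 and 42.0 NR in LH, 7.02, 1.16, 2.40 and 6.34 NR in FSH, and 10, 12.3, 7.06 and 19.8 NR in Negative cells. LH libraries stood above all others in both sexes, at 7.41 times the FSH mean in males and 11.5 times in females. nrip2, whose product binds nuclear receptors, was at 357 ± 89.0, 125 ± 30.3 and 86.6 ± 31.6 NR in LH, FSH and Negative cells of males and at 201 ± 50.6, 66.2 ± 20.4 and 71.3 ± 16.5 NR in those of females, with LH separated in both. zbtb16b, a zinc finger repressor gene, was at 34.5 ± 11.2, 13.3 ± 8.37 and 5.55 ± 5.81 NR in males and at 14.9 ± 4.09, 2.31 ± 1.74 and 4.49 ± 3.36 NR in females, so that its FSH minus Negative difference was 1.30 in males and -0.70 in females.

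**Figure D2:**
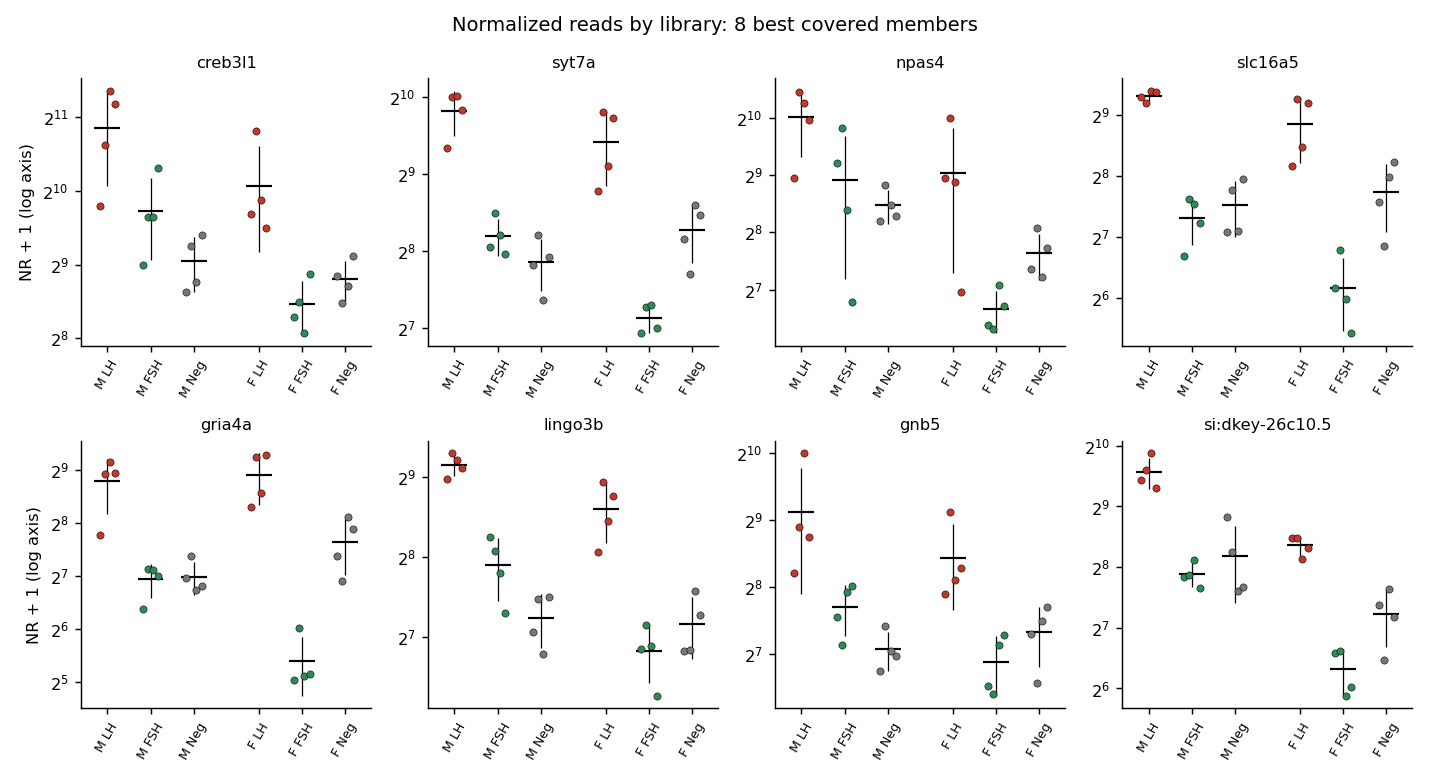
NR + 1 on a log axis in every library of the 8 best covered members, with points for the 4 libraries of male (M) and female (F) LH, FSH and Negative (Neg) fractions and bars for the mean and SD of NR. LH points lie highest in each panel on average, and the exceptions are male LH replicate 1 of creb3l1 (888 NR) and npas4 (495 NR), which fall within the FSH range, female LH replicate 4 of npas4 (124 NR) and female LH replicate 1 of slc16a5 (284 NR, below 1 Negative library).

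Guidance and adhesion molecules made up 6 members. epha8 encodes an Eph receptor tyrosine kinase, a contact-dependent receptor for ephrins on neighbouring cells (linkage group 5, 38717141 to 38861385). In males it was at 86.9, 39.3, 30.2 and 21.3 NR in LH, 9.36, 8.98, 4.91 and 2.40 NR in FSH, and 20.4, 19.6, 17.6 and 16.8 NR in Negative cells. Its female values were 29.1, 15.7, 23.7 and 26.9 NR in LH, 0, 2.32, 2.40 and 2.72 NR in FSH, and 1.83, 1.75, 14.1 and 3.30 NR in Negative cells. The order LH above Negative above FSH held without overlap in males. In females LH was separated from both, FSH libraries were all at or below 3 reads, and LH cells were at least 6.15-fold higher than FSH cells against the mean of that floor.

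lingo3b encodes a membrane protein with leucine-rich repeats and an immunoglobulin domain (LOC100706611, linkage group 18, 12976741 to 13022926). It was at 500.2, 626, 591 and 549.6 NR in male LH, 302, 269, 222 and 157 NR in male FSH, and 133, 178, 109.8 and 181 NR in male Negative cells. In females the values were 266, 491, 349.8 and 435 NR in LH, 115, 142, 118 and 76.1 NR in FSH, and 112, 114, 191 and 154 NR in Negative cells. LH was separated from both fractions in both sexes. The FSH to Negative ratio of means was 1.58 in males and 0.790 in females, with overlap in both.

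sema3e, a secreted semaphorin, was at 304 ± 72.8, 119 ± 40.6 and 78.8 ± 33.1 NR in LH, FSH and Negative cells of males and at 208 ± 95.9, 50.4 ± 32.2 and 89.1 ± 37.7 NR in those of females. amigo3, an adhesion molecule, was at 209.6 ± 74.0, 34.6 ± 6.53 and 42.5 ± 13.6 NR in males and at 157 ± 81.7, 21.4 ± 5.15 and 50.8 ± 7.59 NR in females. The adherens junction gene ajap1 was at 247 ± 98.4, 87.5 ± 33.8 and 60.8 ± 14.0 NR in males and at 255 ± 117, 46.3 ± 10.3 and 94.3 ± 30.7 NR in females. For both amigo3 and ajap1, all female FSH libraries were below all female Negative libraries, while the male ones overlapped. The cadherin gene cdh8 was at 91.8 ± 33.7, 41.8 ± 10.1 and 30.3 ± 5.19 NR in males, where LH and FSH libraries overlapped, and at 78.2 ± 16.7, 33.7 ± 11.9 and 28.4 ± 6.13 NR in females. It lay just inside the rule, with a male LH minus FSH difference of 1.06, next to qdpr at 1.05, whereas si:ch211-246m6.5 and LOC100700975, at 0.996 and 0.997 in females, lay just outside.

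Secretory traffic and the cytoskeleton accounted for 6 members. syt7a encodes synaptotagmin 7, a calcium sensor of vesicle exocytosis (LOC100690092, linkage group 7, 50971256 to 51064128). In male cells it was at 645, 1028, 1032 and 916 NR in LH, 265, 361, 296 and 248 NR in FSH, and 224, 294, 164 and 241 NR in Negative libraries. In female cells it was at 439, 892, 552 and 852 NR in LH, 121, 153, 156 and 127 NR in FSH, and 284, 207, 386 and 355 NR in Negative libraries. LH was separated from both fractions in both sexes, and FSH lay below Negative without overlap in females only.

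The other 5 genes of this class had medium to low levels. itsn2, which encodes the endocytic scaffold intersectin 2, was at 121 ± 21.9, 44.5 ± 6.94 and 58.7 ± 21.2 NR in LH, FSH and Negative cells of males and at 106 ± 24.7, 32.2 ± 6.44 and 48.8 ± 11.2 NR in those of females. mtcl1, a microtubule crosslinking protein gene, was at 236 ± 29.6, 111 ± 28.8 and 96.9 ± 25.6 NR in males and at 193 ± 62.6, 49.7 ± 8.49 and 81.4 ± 20.9 NR in females. gas7a was at 171 ± 28.6, 38.7 ± 9.65 and 55.0 ± 10.8 NR in males and at 105 ± 18.5, 21.8 ± 7.36 and 42.8 ± 9.22 NR in females. LH libraries of these genes were separated from both other fractions. The exocyst-like gene exoc3l2b was at 104 ± 6.88, 34.0 ± 8.23 and 51.4 ± 22.1 NR in males and at 118 ± 43.9, 18.4 ± 4.02 and 45.8 ± 10.7 NR in females. The neurofilament gene nefm was at 53.1 ± 10.8, 27.3 ± 20.1 and 25.4 ± 5.28 NR in males, where LH and FSH overlapped, and at 30.8 ± 6.00, 3.34 ± 2.64 and 14.8 ± 4.88 NR in females. In females, all FSH libraries were below all Negative libraries for itsn2, exoc3l2b and nefm.

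Intracellular signalling contributed 5 members. gnb5 encodes a G protein beta subunit that pairs with RGS proteins of the R7 family. It was at 296, 476, 1018 and 429 NR in male LH, 186, 140.4, 243 and 259 NR in male FSH, and 107, 170.4, 132 and 125 NR in male Negative cells. For females gnb5 was at 237, 555, 275 and 312 NR in LH, 91.3, 83.6, 139 and 156 NR in FSH, and 157, 94.5, 180.0 and 207 NR in Negative cells. LH libraries were separated in both sexes, with male replicate 3 and female replicate 2 far above the other LH libraries of their group. rgs22, a gene of the RGS family that limits G protein signals, was at 74.7 ± 17.2, 34.4 ± 31.7 and 32.2 ± 8.85 NR in LH, FSH and Negative cells of males and at 69.9 ± 19.9, 29.7 ± 28.8 and 23.5 ± 9.17 NR in those of females, with LH and FSH overlapping in both sexes.

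The kinase gene nuak1, of the AMPK-related family, was at 401 ± 144, 102 ± 18.2 and 162 ± 66.0 NR in males and at 318 ± 185, 38.2 ± 9.90 and 144 ± 45.4 NR in females, where it had the lowest LH minus Negative difference of all members, 0.97. ppp2r3b, a regulatory subunit gene of protein phosphatase 2A, was at 221 ± 72.7, 59.1 ± 15.1 and 71.5 ± 13.4 NR in males and at 187 ± 46.4, 33.8 ± 4.17 and 82.1 ± 35.5 NR in females. mylk4a, of the myosin light chain kinase family, was at 24.8 ± 4.21, 9.26 ± 4.99 and 5.79 ± 0.369 NR in males and at 24.1 ± 12.7, 6.99 ± 3.65 and 5.89 ± 2.43 NR in females. LH and Negative libraries overlapped in both sexes for nuak1, and LH was separated from both fractions in both sexes for ppp2r3b and mylk4a.

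Metabolic enzymes and transporters accounted for 6 members. cyp19a1b encodes brain aromatase, the enzyme that converts androgens into estrogens (LOC100534396, linkage group 7, 50208353 to 50213200). In male fish its values were 463, 499, 849 and 311 NR in LH, 86.1, 50.6, 50.4 and 37.2 NR in FSH, and 82.5, 145, 129 and 74.0 NR in Negative cells. In female fish they were 197, 287, 124 and 162 NR in LH, 40.0, 41.8, 38.4 and 29.9 NR in FSH, and 87.7, 82.3, 114 and 85.7 NR in Negative cells. LH libraries were the highest without overlap in both sexes, at 9.46 and 5.13 times the FSH mean and 4.93 and 2.08 times the Negative mean in males and females. With a male FSH minus Negative difference of -0.94, cyp19a1b lay just inside the limit of the rule, as did si:dkey-222f2.1 with -0.93 in females, and prr18 (-1.05) and map3k15 (-1.07), both in males, lay just outside.

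slc16a5 encodes a monocarboxylate transporter. In males it was at 624, 587, 671 and 663 NR in LH, 102, 196, 186 and 149 NR in FSH, and 134, 217, 136 and 246 NR in Negative cells. Its female levels were 284, 611, 353 and 588 NR in LH, 70.2, 109, 62.5 and 41.6 NR in FSH, and 190.0, 114, 251 and 298 NR in Negative cells. Male LH libraries varied less than those of any other member, with a coefficient of variation of 6.05%. In females LH overlapped with the Negative fraction, and all FSH libraries lay below all Negative libraries.

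The bicarbonate transporter gene slc4a8 was at 236 ± 64.0, 103 ± 40.6 and 61.6 ± 6.68 NR in LH, FSH and Negative cells of males and at 189 ± 74.5, 37.9 ± 11.7 and 65.8 ± 21.7 NR in those of females. qdpr, which encodes the enzyme that regenerates tetrahydrobiopterin, was at 347 ± 58.9, 170.1 ± 50.0 and 101 ± 29.7 NR in males and at 226 ± 44.3, 71.3 ± 27.9 and 105 ± 27.3 NR in females. Both genes had LH libraries above all others in both sexes. me1, the gene of cytosolic malic enzyme, which generates NADPH, was at 36.5 ± 9.39, 14.9 ± 4.00 and 17.1 ± 10.9 NR in males and at 26.5 ± 2.68, 8.45 ± 5.0 and 7.49 ± 2.30 NR in females. cybrd1, which encodes a ferric reductase, was at 32.2 ± 9.51, 5.02 ± 4.50 and 14.4 ± 6.67 NR in males and at 17.1 ± 5.67, 3.40 ± 1.23 and 5.58 ± 2.55 NR in females. For me1 and cybrd1, LH and Negative libraries overlapped in males only.

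The remaining 20 members had no role that could be given with certainty, and 4 of the 8 members with the largest LH minus FSH differences were among them. LOC102083321 had the largest difference (linkage group 11, 26388815 to 26393782). The study names it a probable cyclin-dependent serine/threonine-protein kinase. It is also among the genes that the study lists as most enriched in LH cells of both sexes. It was at 56.3, 66.0, 45.8 and 43.9 NR in male LH, 0.936, 1.22, 0 and 0 NR in male FSH, and 4.28, 4.52, 1.76 and 1.12 NR in male Negative cells. In females it was at 32.8, 15.7, 16.4 and 14.3 NR in LH, 0, 0, 0 and 0.905 NR in FSH, and 0, 3.5, 1.18 and 0 NR in Negative cells. All LH libraries lay well above the rest, and the FSH libraries of both sexes and the female Negative libraries were at or below 3 reads. LH cells were at least 18.7-fold higher than FSH cells in males and at least 5.10-fold higher in females, against the mean of that floor.

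LOC100707031 (linkage group 14, 21743435 to 21746346) was at 16.1, 11.2, 12.5 and 12.5 NR in male LH, 0, 0, 1.23 and 0 NR in male FSH, and 4.28, 1.51, 0 and 1.12 NR in male Negative cells. Among females the gene was at 7.28, 14.4, 3.64 and 6.72 NR in LH, 0, 0, 0 and 0.905 NR in FSH, and 0 NR in each of the 4 Negative libraries. LH means were at least 4.63-fold above FSH cells in males and at least 2.07-fold in females. The LH libraries had more NR than all others in each sex, although female LH replicate 3 was itself under 3 reads.

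si:dkey-222f2.1 (LOC100700119, linkage group 5, 5185253 to 5194810) was at 8.04, 28.1, 29.2 and 16.3 NR in male LH, 0.936, 0, 0 and 0 NR in male FSH, and 9.64, 4.52, 11.4 and 4.49 NR in male Negative cells. Its female libraries were at 15.3, 9.18, 3.64 and 21.9 NR in LH, 0, 3.48, 0 and 0.905 NR in FSH, and 1.83, 1.75, 5.88 and 1.10 NR in Negative cells. LH and Negative libraries overlapped in both sexes. LH cells were at least 7.21-fold above FSH cells in males and at least 3.22-fold in females by their means. In females, LH replicate 3 and FSH replicate 2 were both at or under 3 reads, so that their order was not measurable at this depth. Male Negative libraries were all above male FSH libraries, and this gene had the lowest FSH minus Negative difference of all members, -2.75.

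LOC102077685 was the member with the highest FSH minus Negative difference in males, 1.44 (linkage group 12, 28897005 to 28916215). The study lists it as an uncharacterized protein among the most enriched LH genes of both sexes. Its male libraries were at 351, 198, 90.6 and 69.0 NR in LH, 24.3, 32.2, 11.1 and 13.2 NR in FSH, and 9.64, 3.02, 13.2 and 3.37 NR in Negative cells. Its female libraries were at 60.4, 44.6, 29.2 and 40.3 NR in LH, 6.32, 10.4, 2.40 and 7.24 NR in FSH, and 3.65, 7.0, 4.71 and 1.10 NR in Negative cells. LH libraries were separated from both fractions in both sexes, with LH to Negative ratios of means of 24.3 and 10.6, and FSH and Negative libraries overlapped.

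si:dkey-26c10.5 was the best covered gene of this class (LOC100696287, linkage group 11, 22868994 to 22875712). In males it was at 688, 772, 939 and 631 NR in LH, 227, 234, 278 and 200.3 NR in FSH, and 452, 305, 195 and 204 NR in Negative cells. Female cells had 358, 354, 279 and 318 NR in LH, 95.5, 97.5, 57.6 and 64.3 NR in FSH, and 164, 87.5, 199 and 144 NR in Negative cells. LH libraries were the highest without overlap in both sexes, and male Negative replicate 1 was above the other Negative libraries.

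Of the other 15 members of this class, LOC100709854 had the largest difference over the Negative fraction, with 45.0 ± 22.6, 3.92 ± 1.15 and 3.28 ± 1.93 NR in LH, FSH and Negative cells of males and 21.1 ± 5.67, 4.83 ± 0.966 and 2.31 ± 1.66 NR in those of females, where the Negative libraries were all at or below 3 reads and LH cells at least 5.69-fold higher against the mean of that floor. caiap had 169 ± 97.1, 21.1 ± 4.33 and 53.0 ± 26.8 NR in males, where all FSH libraries were below all Negative libraries, and 46.7 ± 27.9, 11.5 ± 2.50 and 13.0 ± 5.58 NR in females. brinp1 had 140.0 ± 10.6, 57.5 ± 11.9 and 45.1 ± 19.5 NR in males and 124 ± 28.8, 27.2 ± 5.41 and 52.1 ± 19.5 NR in females. si:ch73-233f7.1 had 265 ± 133, 49.4 ± 30.7 and 44.4 ± 30.6 NR in males and 84.4 ± 13.2, 17.3 ± 9.91 and 19.7 ± 9.94 NR in females, and its LH libraries were separated from both fractions in each sex, as were those of brinp1, ttc9b, LOC102082553, LOC100692491 and LOC100694185. LOC100694185 had 52.9 ± 7.67, 5.28 ± 2.55 and 22.2 ± 10.6 NR in LH, FSH and Negative cells of females, where FSH lay below Negative without overlap. The same held in females for LOC100703324, with 36.6 ± 21.9, 2.34 ± 0.410 and 12.8 ± 4.27 NR, and for LOC100696783, with 28.9 ± 16.2, 3.03 ± 1.86 and 12.3 ± 4.88 NR. For LOC100692491 it held in males, with 78.1 ± 16.4, 17.0 ± 7.08 and 28.8 ± 2.85 NR. LH and FSH libraries overlapped in males for fam163b, in females for LOC102075757 and LOC100534448, and in both sexes for si:ch211-198m17.1, which had the lowest female LH minus FSH difference of all members, 1.07. The class had median LH minus FSH differences of 2.23 in males and 2.07 in females.

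**Figure D3:**
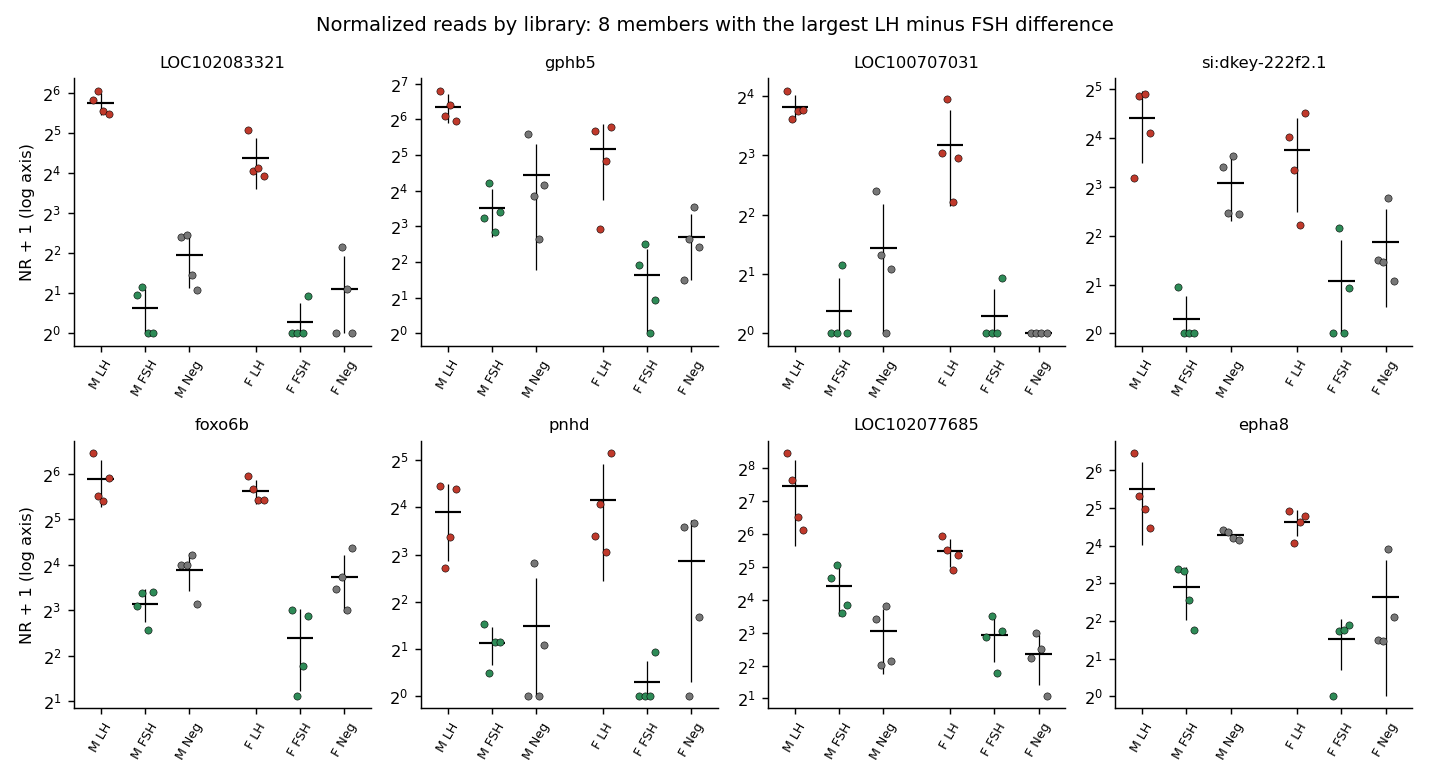
NR + 1 on a log axis in every library of the 8 members with the largest smaller-sex LH minus FSH difference, laid out with points for libraries and bars for the mean and SD of NR by sex (M, F) and fraction. FSH points of pnhd, LOC102083321, LOC100707031 and si:dkey-222f2.1 lie at or near zero in both sexes, and female LH replicate 2 of gphb5 (6.56 NR) is low.

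Role classes are described by their medians of FSH minus Negative, which the rule used, beside those of all 59 members, -0.14 in males and -0.71 in females. The median was 0.45 in males and -0.93 in females for the 6 guidance and adhesion genes, 0.55 and -0.70 for the 5 transcription regulators, and -0.38 and -1.08 for the 7 receptors and channels. The 4 secreted proteins were at -0.49 and -1.20, and the 4 metabolic enzymes at -0.49 and -0.56. Lists of the same kinds were counted over all 1309 genes, of which the members were 4.51%. Members were 1 of 24 G protein-coupled receptors (4.17%), 3 of 39 ion channel genes (7.69%; gria4a, neto1 and tmem266), 4 of 25 matrix and secreted protein genes (16%), 5 of 34 transcription regulators (14.7%) and 6 of 31 guidance and adhesion genes (19.4%). The lists were made with the members known, so that these shares are a description. LOC100534567, the receptor member, and LOC100534508 were added to the receptor list by hand, and no other gene was. Both were higher in LH than in FSH cells, so the receptor counts lean towards LH. An LH minus FSH difference above 1 in both sexes was found for 9, 9, 9, 8 and 7 genes of these lists, and the opposite difference beyond -1 in both sexes for 7, 15, 8, 8 and 12 genes, beside 151 and 490 of all 1309. The rest of the LH-higher genes in each list were genes under -1 in FSH cells in both sexes or genes set aside by name.

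**Figure D4:**
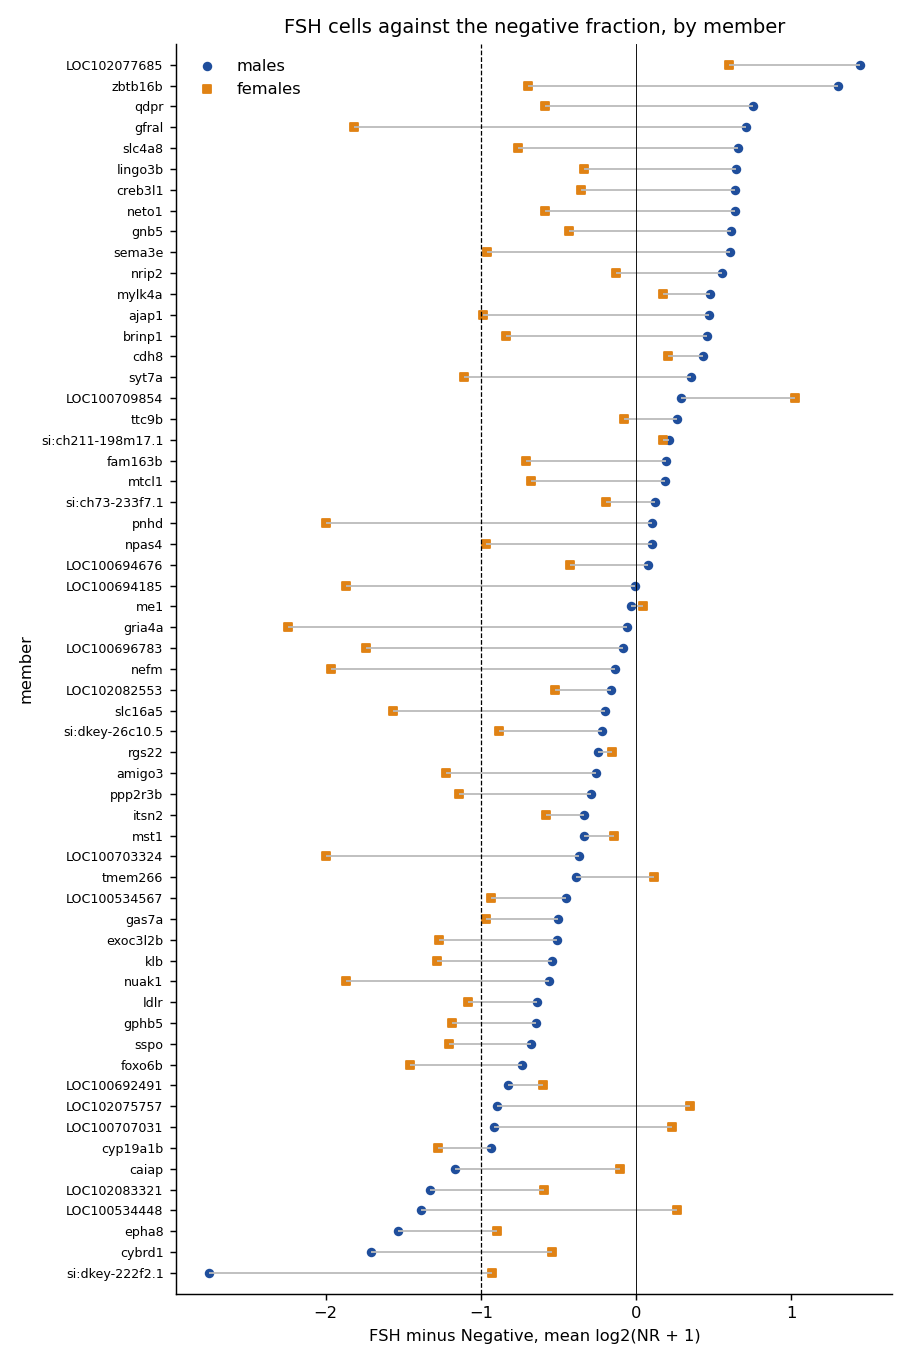
FSH minus Negative difference of mean log2(NR + 1) in males (blue circles) and females (orange squares) for each of the 59 members, ordered by the male value, with the rule's limit of -1 dashed. The female value is lower in 45 members (76.3%) and in 71.4% of all 1309 genes. It lies under -1 in 19 members whose male value does not, whereas the reverse is seen in 6. The share of all genes under -1 in a single sex was not computed. All FSH libraries below all Negative libraries were likewise more common in the whole female table (17.6%) than in the male table (6.81%).

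The sexes were normalized in separate tables, so that only differences within a table were compared between them. The rule used FSH minus Negative, bounds the other contrasts within each sex, and admits genes that are low in FSH cells of a single sex. The sex differences of members are therefore a description, given beside those of all genes and without p-values of single members. The same holds for the calls below, which do not test for a sex difference among members chosen this way. FSH minus Negative was larger in males in 45 of 59 members (76.3%) and in 71.4% of all 1309 genes, with a median male minus female difference of 0.68 (range -1.82 to 2.53) beside 0.29. LH minus Negative was larger in males in 44 members (74.6%) and in 83.7% of all genes, with medians of 0.35 and 0.53. LH minus FSH was larger in females in 41 members (69.5%) and in 28.6% of all genes, with medians of -0.31 and 0.28, and the rule bounds this contrast from below in each sex. At an adjusted p below 0.05 in the interaction fit of limma over 24 libraries, 3 of 59 members were called for FSH minus Negative, beside 1.38% of all genes. With the sort as a replicate block, 5 were called, the other two being qdpr and LOC100694185, beside 3.06% of all genes.

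The 3 members called were gria4a, syt7a and gfral. In gria4a the FSH minus Negative difference was -0.06 in males and -2.24 in females, which differ by 2.18 (SE 0.43). For syt7a it was 0.36 and -1.11, which differ by 1.46 (SE 0.34). In gfral it was 0.71 and -1.82, which differ by 2.53 (SE 0.62). None of the 3 was called without replicate 3 or without replicate 4, where 3 sorts a sex were left. Of all genes, 0.229% and 0.535% were called in these fits, against 1.38% with all replicates. syt7a was also not called without replicate 1, and gfral neither without replicate 1 nor without replicate 2. Without the trend and after centring on the median of all genes only gria4a was called, and in edgeR with TMM gria4a and gfral were.

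For LH minus Negative, 1 member of 59, cyp19a1b, was called for a sex difference, beside 12.8% of the 1309 genes. Its difference was 2.25 in males and 1.00 in females, which differ by 1.26 (SE 0.42), and by 0.73 relative to the median of all genes, 0.53. It was not called without replicate 1, 3 or 4, where 5.27, 0.611 and 11.6% of all genes were called. Without replicate 3, in which male LH cells had 849 NR, the highest value of the gene, the sex difference was 0.81. For LH minus FSH no member was called in limma, beside 0.306% of all genes, with 9 members (and 12.1% of all genes) at an unadjusted p below 0.05. gria4a was called there in edgeR with TMM scaling and in limma after centring on the median of all genes.

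Among female LH libraries, 34 of 59 members (57.6%) were highest in replicate 2, as were 47.5% of all 1309 genes, so that most of this share was common to the genes of the tables. Replicates 4, 1 and 3 were highest for 16, 8 and 1 members, beside 19.9, 17.0 and 15.6% of all genes. The summed NR of the members was 11832 in replicate 2 and 6659 to 7888 in the others. That library had the lowest macrophage marker sum of the female LH libraries, 6003 NR against 12028 to 14569 NR, and the highest level of the vessel endothelium gene kdrl, 178 NR against 26.9 to 78.3 NR, while its lhb level, 1123 NR, lay within the range of the others. The part of these differences in the members' levels was not tested. Without replicate 2 in all fractions of both sexes, the female medians were 2.11 for LH minus FSH and 1.18 for LH minus Negative. In that setting, which also left out male replicate 2, 54 of the 59 members still met the rule.

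In males, members were highest in LH replicates 1, 2, 3 and 4 in 16, 8, 20 and 15 cases, beside 46.8, 13.4, 16.1 and 23.8% of all 1309 genes, and lowest in 26, 7, 9 and 17, beside 24.3, 15.5, 23.5 and 36.7%. Replicate 1, the library with the highest lhb, thus held the lowest value of 26 members, among them creb3l1, npas4, gria4a, ldlr and LOC100703324, and the highest of 16, among them LOC102077685, epha8, sspo, gphb5 and foxo6b. The summed NR of members was 10288 in replicate 1 and 13256 to 15856 in the others. Without replicate 1, the male medians were 1.86 for LH minus FSH and 1.82 for LH minus Negative. The median coefficient of variation of members over 4 libraries was 29.5% in male LH, 36.0% in male FSH, 32.1% in male Negative, 32.9% in female LH, 39.2% in female FSH and 37.0% in female Negative cells.

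**Figure D5:**
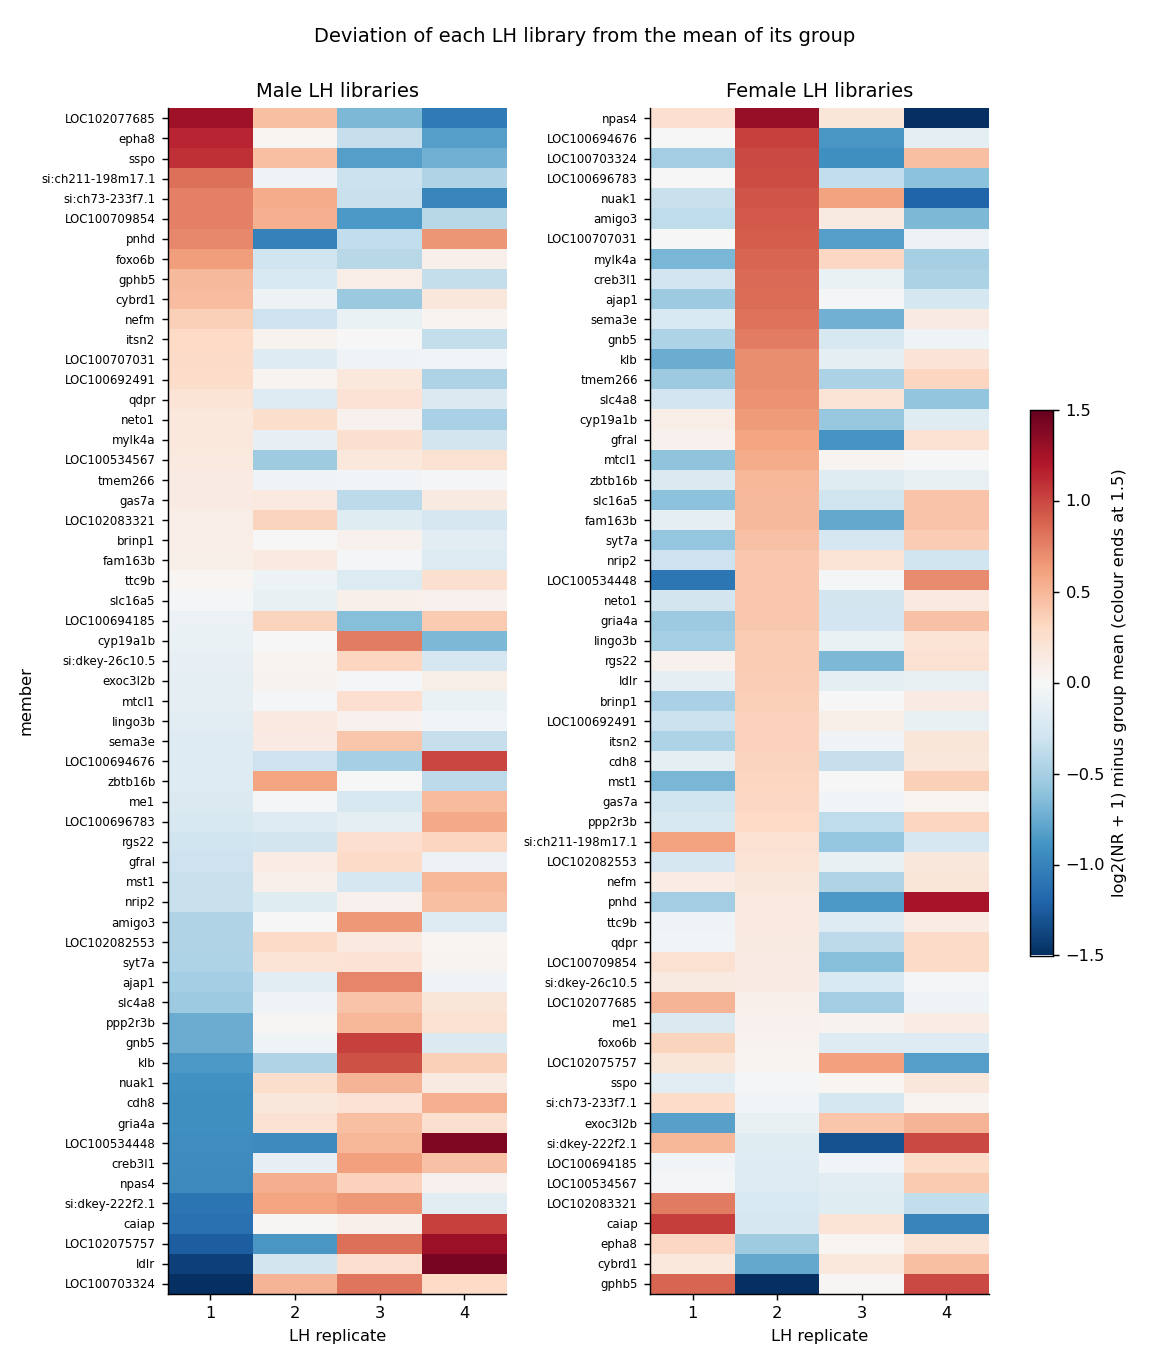
Deviation of log2(NR + 1) of each LH library from the mean of the 4 LH libraries of its sex, for the 59 members, males ordered by replicate 1 and females by replicate 2 (colour scale ends at 1.5 in each direction). Female replicate 2 is above the mean for most members, with 34 of 59 highest there, while male replicate 1 is high for genes such as LOC102077685 and low for genes such as LOC100703324.

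The positions of the members were spread over the genome. The annotation matched 50 members, which lay on 19 linkage groups. Linkage group 7 held more members than any other, and it also had the most genes of these linkage groups. There 8 of the 116 genes of both tables were members (6.90%, beside 4.51% of all 1309 genes). The share was higher on linkage groups 11 (10%), 18 (9.80%), 5 (9.62%) and 14 (7.58%). On linkage group 7, LOC100694676 and cyp19a1b were the closest pair of members, 68.3 kb apart. LOC100694676 was at 107 ± 60.1, 25.6 ± 7.56 and 23.8 ± 5.16 NR in LH, FSH and Negative cells of males and at 60.8 ± 35.4, 13.3 ± 5.51 and 17.7 ± 6.65 NR in those of females, with LH separated in both sexes.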

How the data were processed

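RNA of 24 sorted libraries was sequenced. The processing notes of the submitters name FastQC 0.11.4, Trim Galore, STAR, HTSeq and DESeq2. The authors mapped the reads to O_niloticus_UMD_NMBU and deposited, in a table for each sex, normalized reads (a signal, unit NR), which are reads divided by a DESeq2 size factor, for genes selected as enriched in LH or FSH over Negative cells (2392 male and 1849 female genes). The log2 fold changes and the p-values that the authors deposited beside them hold their own comparisons and were not used. In the male table the names stood 1 row below their values and were moved.

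NR fell on whole reads for 100% of values (tolerance 0.01), which gave the counts behind them. Depth and the floor of 3 reads are in the report. Nothing in the labels says that fish were shared between sorts. P-values of the main fit measure the spread between the 4 libraries of a group, with no term for the pool.

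For the sex difference, limma 3.58.1 (R 4.3.3) was run on log2(NR + 1) of all 6 groups with a trend and without a filter on low values. P-values were adjusted by Benjamini-Hochberg over the 1309 genes, and calls were made at an adjusted p below 0.05. The scripts were tested on simulated data. Alternatives were pseudocounts of 0.5 and 5, a minimum of 10 NR, each replicate left out, a replicate block, no trend, centring, edgeR 4.0.16 and DESeq2 1.42.0. The last 2 used the recovered reads. Libraries with the same number and sex were taken to come from the same pool. The correlation of their deviations was -0.28 to 0.50 (median 0.14, above 0.1 in 15 of 24 pairs). Between LH and Negative libraries of females it was 0.15, -0.28, -0.16 and -0.13 for replicates 1 to 4. Between those of males it was 0.42, 0.18, 0.11 and 0.34.

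The members and lists were chosen with earlier results of these data known. Genes given by library were the 8 with the largest smaller-sex LH minus FSH difference, the 8 with the largest smaller-sex LH mean, and members with a called sex difference. Others are named by role or for lying next to a limit. Names came from the RefSeq annotation of that assembly, which matched 31 members by symbol and 19 by gene number. The other 9 kept the name in the table. Gene lists were matched by symbol after the files were seen, since the annotation carries no descriptions. LOC100534567 and LOC100534508 were added by hand to the list of G protein-coupled receptors. Promoter motifs and sequences were not analysed here. Of the marker lists, the tables held cdh5 (males) and kdrl (females) for endothelium, dcn for mural cells, fabp7a (females) for glia, and none for red blood cells, T cells or other pituitary cells. In LH, FSH and Negative libraries, cdh5 was at 25.7 to 43.7, 6.14 to 14.0 and 8.97 to 26.8 NR in males, kdrl at 26.9 to 178, 0 to 16.3 and 16.4 to 53.8 NR in females, and fabp7a at 10.1 to 38.0, 0 to 6.32 and 3.50 to 14.3 NR in females. dcn was at 16.3 to 66.0, 19.2 to 46.8 and 0 to 5.27 NR in males and at 0 to 8.01, 2.40 to 31.7 and 0 to 1.75 NR in females. Figures were drawn with Python 3.11.15 and matplotlib 3.10.9.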

Additional observations from a re-analysis of the deposited data

Results flagged for a closer look

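Among the 108 groups of 4 libraries of the 18 members given by library, 12 held a library whose gap to the others passed Dixon's 95% limit for 4 values. The chance rate of about 5% holds for normally distributed values. It does not hold for single reads beside zeros, which pass the limit by their form, so the share cannot be set against it. Over all members such groups numbered 29 of 354. In female Negative replicate 3, cyp19a1b (114 NR), epha8 (14.1 NR) and si:dkey-222f2.1 (5.88 NR) were high. In female FSH cells, gria4a was high in replicate 2 (63.9 NR) and epha8 low in replicate 1 (0 NR). gfral was low in female Negative replicate 2 (12.3 NR), and LOC102083321 was high in female LH replicate 1 (32.8 NR). The others were single reads beside zeros, in si:dkey-222f2.1 in male FSH replicate 1 (0.936 NR), LOC100707031 in male FSH replicate 3 (1.23 NR), and pnhd, LOC102083321 and LOC100707031 in female FSH replicate 4 (0.905 NR each).

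In the interaction fit of limma, cyp19a1b was called for LH minus Negative (1.26, male minus female) and gria4a (2.18), syt7a (1.46) and gfral (2.53) for FSH minus Negative. These contrasts chose the members or follow from those that did, so the values are a description. None of the 4 was called without replicate 3 or without replicate 4.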

How the results depend on the processing

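The rule gave 55 to 75 members under the alternatives. With a pseudocount of 5 it gave 75, of which 56 were among the 59, and the female median LH minus FSH difference was 1.91. The medians without 1 replicate ranged from 1.61 to 1.89 and 2.11 to 2.33 for LH minus FSH in males and females. Members with a sex difference in LH minus Negative numbered 0 to 2 of 59 without 1 replicate, beside 0.611 to 11.6% of all genes. They numbered 2 with a pseudocount of 5 (14.7% of all genes) and 0 without the trend (9.32%). They also numbered 0 after centring on the median of all genes (0.84%) and in edgeR with TMM (0.84%). In FSH minus Negative they numbered 0 to 3 of 59 without 1 replicate, beside 0.229 to 1.53% of all genes. They numbered 5 with the replicate block (3.06% of all genes), 1 without the trend (0.84%), 1 after centring (0.458%) and 9 in DESeq2 (4.74%). The block changed no other call of the 4 named genes. The LH minus Negative sex difference of gria4a, which did not pass in any fit, was 0.46 and turned to -0.074 after centring and -0.010 in edgeR with TMM, and ranged from -0.049 to 0.87 without 1 replicate. That of cyp19a1b was 0.73 after centring, 0.66 in edgeR with TMM and 1.26 without the trend, and it was called in none of these fits. The causes were not tested. Leaving out a replicate also leaves fewer samples. A minimum of 10 NR removed no gene.

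The limits are the depth, with members at or below 3 reads in all FSH libraries numbering 4 in males and 5 in females (with those at their bound the female median LH minus FSH difference was 2.14), and the tables, which hold selected genes only.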
